A study of Homo sapiens with 2 samples.

Results

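Antisense noncoding RNAs were followed in SBC-3 cells, an adherent small cell lung cancer (SCLC) cell line, together with the genes on whose opposite strand they are named. The antisense RNAs were taken as the probes that are not array controls, that carry a noncoding RefSeq accession beginning with NR_, and whose matched gene symbol ends in -AS1, -AS2 or -AS3. This gave 193 probes of 167 antisense RNA genes, out of 1581 probes with an NR_ accession and 42405 probes in all. Each was set beside the probes of its sense gene, the gene named before the hyphen. Of 166 sense genes named in this way, 160 had a probe on the array, with 232 probes among them. The level of a gene played no part in this choice.

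The study asked what changes in gene expression follow a decrease of HOTAIR, a long noncoding RNA that is itself transcribed from the antisense strand of the HOXC gene cluster but is not named as an -AS gene. One group was #1 siHOTAIR, SBC-3 cells transfected with an siRNA against HOTAIR that is labelled #1. The other was siGFP, SBC-3 cells transfected with an siRNA against green fluorescent protein as the control. Both came from the same parental line, and the Cy3-labelled total RNA of each was measured on 1 Agilent one-colour array. Neither condition had a replicate, so no test was run and no P-value is given. The siRNA cannot be told apart from the array or the culture, and fewer cells of a type cannot be told apart from less RNA per cell.

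An antisense RNA is transcribed from the strand opposite to another gene. Some start close to the start of the sense gene and run away from it, so that both genes lie on either side of 1 promoter region, and others start within or behind the sense gene and run across it. Single antisense RNAs are known that act on the chromatin, the splicing, the stability or the translation of their sense gene, while many others have no known role and are present at low levels.

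HOTAIR, the targeted gene, had 1 probe with 1 spot. Its processed signal, the intensity of a spot after background subtraction and correction of trends across the slide, was 108 after #1 siHOTAIR and 244 after siGFP. After each array was scaled to the 75th percentile of its own signals, 650.3 and 629.9, the log2 ratio was -1.22, or 57.2% lower. Every ratio below has the same direction, #1 siHOTAIR over siGFP, on this scale, and of a pair of signals the first is after #1 siHOTAIR and the second after siGFP. Of the defining genes of epithelial and SCLC cells, the scanner software called at least 1 probe each of KRT8, KRT18, YAP1, NEUROD1 and DLL3 well above background on both arrays. INSM1, SYP and POU2F3 were on neither, CHGA and 1 of 3 probes of NCAM1 only after #1 siHOTAIR, and EPCAM only after siGFP. Among genes of other cell types, COL1A1, CDH5 and 1 of 4 probes of PTPRC passed this call on both, and DCN, LUM, HBB, CD3E and PECAM1 were on neither. Their part in the values of the antisense RNAs was not tested.

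The same call was passed by 55.5% of all spots that are not controls after #1 siHOTAIR and 58.3% after siGFP. A probe was compared if 50% or more of its spots passed this call on either array, which held for 24117 of the probes measured on both. Of the 193 antisense probes, 98 were compared (50.8%), and they belonged to 84 genes. Of these 98 probes, 83 passed on both arrays, 14 in siGFP-transfected cells only and 1 in #1 siHOTAIR-transfected cells only. The other 95 antisense probes were on neither array and have no ratio. Of the probes of the sense genes, 73.3% were compared (170 of 232), against 56.9% of all probes and 47.8% of the NR_ probes outside the set. Antisense RNAs thus passed the background less often than the genes they are named after in these cells, and about as often as other noncoding RNAs. All 98 compared antisense probes had a single spot, so no antisense ratio has a second spot of the same probe beside it.

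The antisense ratios lay more often below 0 than above it. Of the 98 ratios, 65 were below 0 and 33 above, with a median of -0.21, a middle range of -0.57 to 0.11 and extremes of -2.70 and 1.60. The sense probes were divided evenly, 84 below 0 and 86 above, with a median of 0.01, which was also the median of all compared probes. The other NR_ probes had a median of -0.06, and 55.9% of them were below 0, against 66.3% of the antisense probes and 48.3% of all. Among the 83 antisense probes on both arrays the median was -0.16, and 51 were below 0.

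At least 2-fold lower in #1 siHOTAIR-transfected cells were 12 of the 98 antisense probes (12.2%), and 2 were at least 2-fold higher (2.04%). Over all compared probes these shares were 4.1% lower and 3.3% higher, and over compared probes with 1 spot, as the antisense probes have, 4.43% lower and 3.49% higher. The other NR_ probes stood closer to the antisense probes, with 7.83% lower and 2.86% higher. Limited to probes on both arrays, 5 of 83 antisense probes were lower and 1 was higher, against 1.54% lower and 1.5% higher for all such probes. Of the other NR_ probes on both arrays, 21 of 559 were lower and 3 were higher. The sense probes stayed near the background, with 5 of 170 lower (2.94%) and 7 higher (4.12%). The counts came from background-subtracted signals and were smaller under other background settings. With normexp correction 4 antisense probes were lower and 1 was higher. Without correction 1 was lower, NFYC-AS1, and 1 was higher, CIRBP-AS1. No share of all probes is given for these settings, so their counts cannot be set against a background. Nothing here is a test, since all probes share the same 2 arrays and probes are not replicates.

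**Figure D1:**
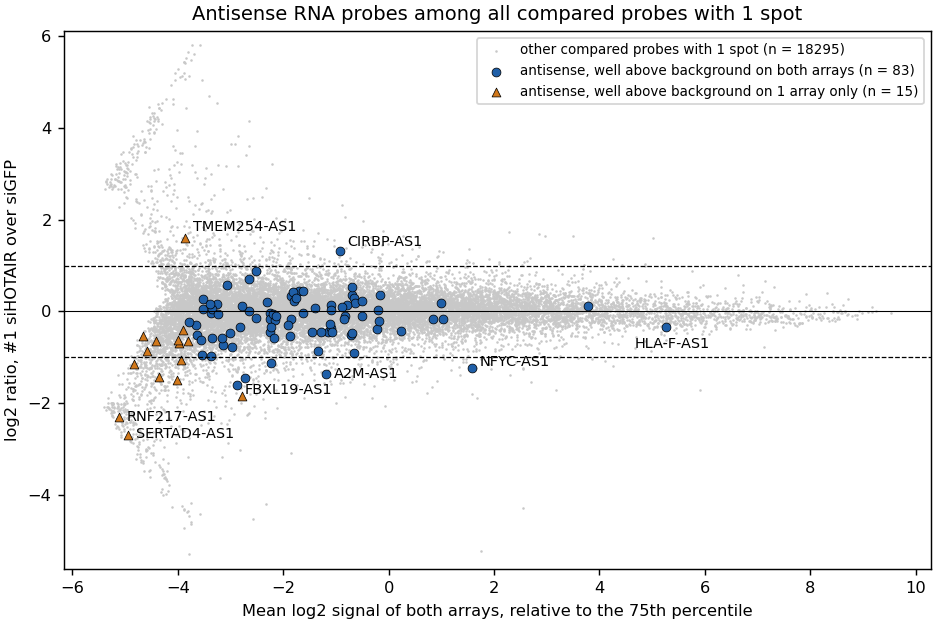
The log2 ratio of #1 siHOTAIR over siGFP (vertical axis) is plotted against the mean log2 signal of both arrays relative to the 75th percentile (horizontal axis), with 1 point a probe and dashed lines at 2-fold. Of the antisense probes, 65 lie below 0 and 33 above, and the probes on 1 array only (triangles) sit at the dim end, where the cloud of the other 18295 compared probes with 1 spot is widest.

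The level of signal has to be read beside these shares, as the plot of ratio against level shows. The median level of the compared antisense probes was -2.18 on the log2 scale relative to the 75th percentile, against -1.09 for all compared probes. Below a level of -4, 5 of 9 antisense probes were at least 2-fold lower, and so were 27.5% of all probes with 1 spot and 34.6% of the other NR_ probes. Between -4 and -2, where 43 antisense probes lay, 5 were lower (11.6%) against 4.14% of all probes with 1 spot and 5.13% of the other NR_ probes. Between -2 and 0, 1 of 39 antisense probes was lower and 1 was higher, and the median was -0.04. The surplus of lower antisense probes thus lay mainly at dim signals, and only 7 antisense probes were above the 75th percentile at all.

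**Figure D2:**
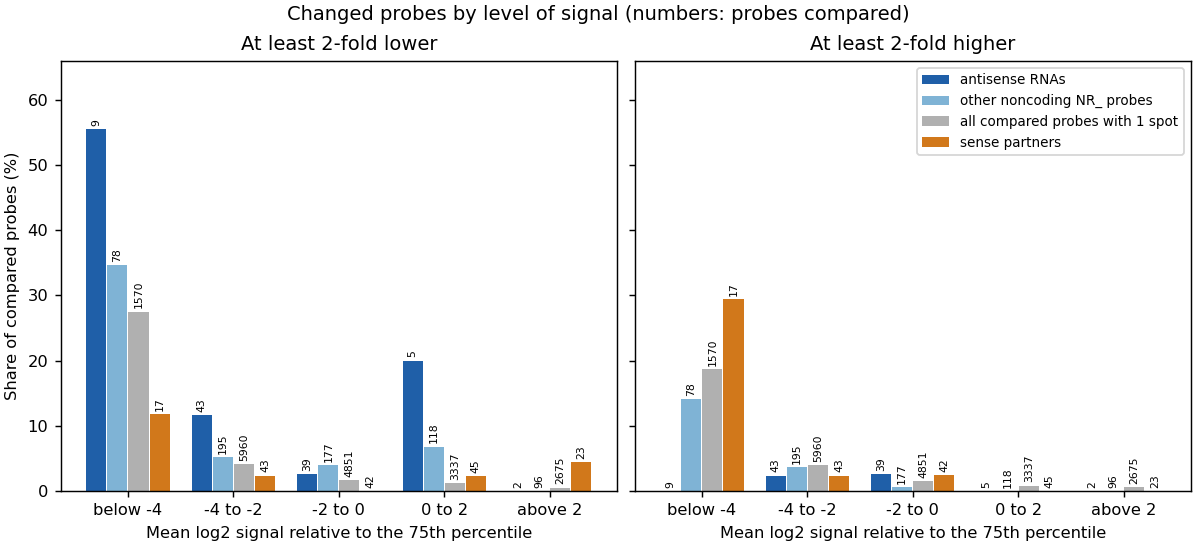
Bars give the share of compared probes at least 2-fold lower (left) or higher (right) in #1 siHOTAIR-transfected cells within 5 classes of mean log2 signal relative to the 75th percentile, and the number on each bar is the number of probes compared. Antisense RNAs have taller bars on the left than all probes with 1 spot below -2 (5 of 9 and 5 of 43 probes), and the bar from 0 to 2 stands for 1 of 5 probes.

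A smaller limit, 0.5 on the log2 scale, takes in more probes and was set after the values were seen. Of the 83 antisense probes on both arrays, 60 lay within 0.5 of 0, 18 were lower by more (21.7%) and 5 were higher by more (6.02%). For all probes with 1 spot the shares were 7.81% and 9.17%, for other NR_ probes 16.5% and 5.37%, and for the sense probes 8.33% and 9.62%. Noncoding RNAs outside the set thus leaned the same way as the antisense RNAs.

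The lean was also uneven across the slide. Rows 1 to 144 of the 384 rows of spots held wider ratios in general, with 4.36% of the compared spots at least 2-fold higher and 4.70% lower, against 2.12% and 3.53% in the other rows. The 31 antisense probes in those rows had a median ratio of -0.45, and 25 were below 0. The other 67 antisense probes had a median of -0.10, and 40 were below 0. All probes with 1 spot had a median of 0.01 on either side of this line. The share of antisense probes at least 2-fold lower differed little, 4 of 31 in these rows and 8 of 67 elsewhere. The part of the position on the slide in these ratios was not tested.

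Where the start sites of an antisense RNA and its sense gene lie close together, the stretch between them, where they diverge, lies upstream of both genes. Of the 167 antisense genes, 122 had an entry in the RefSeq promoter table of GRCh38.p14. In 43 pairs the genes started head to head within 1000 bases, of which 13 diverged without sharing bases and 30 had the antisense start inside the sense transcript. In 36 pairs the antisense RNA started further inside the sense gene, and in 20 it started beyond the end of the sense gene. In 3 pairs its listed start lay upstream of the sense gene although the spans of both genes overlap. In 4 the genes did not overlap. The remaining 61 pairs were not matched. Antisense genes with a head to head start were compared in 28 of 43 pairs (65.1%), those starting inside the sense gene in 14 of 36 (38.9%) and those starting beyond its end in 12 of 20 (60%).

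Of the diverging pairs, 7 started less than 250 bases apart with both genes well above background on both arrays. The 4 whose antisense ratio was at least 0.5 in size are shown, because in these a single short stretch of DNA lies between 2 genes that were measured with unlike ratios in 3 pairs and like ratios in 1. The sequences are from RefSeq, GRCh38.p14, read 5′ to 3′ on the strand of the antisense RNA. Capitals mark the bases between both start sites, and lower case marks the first 50 bases of the antisense RNA. DICER1-AS1 is at chr14:95157530-95157737 on the plus strand, KTN1-AS1 at chr14:55580043-55580206 on the minus strand, URB1-AS1 at chr21:32393013-32393182 on the plus strand and ZNF407-AS1 at chr18:74597786-74597869 on the minus strand.
DICER1-AS1: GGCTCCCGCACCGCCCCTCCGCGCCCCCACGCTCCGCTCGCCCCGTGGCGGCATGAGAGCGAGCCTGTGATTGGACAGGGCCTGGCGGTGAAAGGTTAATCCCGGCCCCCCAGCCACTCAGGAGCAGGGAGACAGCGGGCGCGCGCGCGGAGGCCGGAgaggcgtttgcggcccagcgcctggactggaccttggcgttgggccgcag
KTN1-AS1: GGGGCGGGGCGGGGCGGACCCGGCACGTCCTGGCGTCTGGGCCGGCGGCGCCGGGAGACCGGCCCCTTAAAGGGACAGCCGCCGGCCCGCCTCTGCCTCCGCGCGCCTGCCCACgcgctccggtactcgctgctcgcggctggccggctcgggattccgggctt
URB1-AS1: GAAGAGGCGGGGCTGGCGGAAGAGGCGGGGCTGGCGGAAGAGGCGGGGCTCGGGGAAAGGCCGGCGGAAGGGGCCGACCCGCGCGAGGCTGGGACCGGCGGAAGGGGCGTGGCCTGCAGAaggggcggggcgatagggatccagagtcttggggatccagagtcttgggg
ZNF407-AS1: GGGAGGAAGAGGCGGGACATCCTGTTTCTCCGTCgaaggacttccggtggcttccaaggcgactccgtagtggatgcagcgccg

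These stretches were short and rich in G and C. DICER1-AS1 and DICER1 had 158 bases between their starts, with 74.7% G and C and 19 CG dinucleotides. KTN1-AS1 and KTN1 had 114 bases with 82.5% G and C, URB1-AS1 and URB1 had 120 bases with 77.5%, and ZNF407-AS1 and ZNF407 had 34 bases with 61.8%. The letters CCAAT, the motif bound by the NF-Y complex, occurred on either strand once in the DICER1 stretch and in none of the other 3. Over promoters of 300 bases, from 250 before to 50 after the start, CCAAT on either strand was present in 27.0% of the antisense genes (33 of 122), 30.6% of the sense genes and 35.7% of all 27305 promoters. TATAAA on either strand was present in 4.92% of the antisense promoters (6 of 122), 7.26% of the sense promoters (9 of 124) and 12.0% of all. The median G and C content was 63.2% for the antisense promoters, 65.0% for the sense promoters and 58.3% for all, and it was 65.7% for the antisense genes compared and 61.3% for those not compared. A match is a description of letters and not of a bound factor.

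DICER1 encodes the nuclease that cuts microRNAs from their precursors. DICER1-AS1, whose start is shown above, had a signal of 94.2 after #1 siHOTAIR and 197 after siGFP, a log2 ratio of -1.11. DICER1 itself had 1962 and 1849 by a probe with 2 spots, a ratio of 0.04. The antisense RNA was lower by more than 2-fold in this setting, but by less with spike-in scaling (-0.97), normexp correction (-0.75) or no background correction (-0.70). URB1, a factor of ribosome assembly, and its antisense RNA had ratios of opposite sign, 0.93 from 537 and 274 for URB1 and -0.85 from 191 and 335 for URB1-AS1. KTN1 encodes kinectin, an anchor for the motor protein kinesin. KTN1-AS1 had 133 and 78.8, a ratio of 0.70, and KTN1 had 5145 and 5926, a ratio of -0.25. ZNF407, a zinc finger protein, had a ratio of 0.60 by its brighter probe, and ZNF407-AS1 had 0.58 from 95.1 and 61.5. The second probe of ZNF407-AS1 gave -0.07, so the likeness of this pair rests on 1 of 2 antisense probes.

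The antisense RNAs on both arrays that were at least 2-fold lower included FBXL19-AS1, A2M-AS1, NFYC-AS1 and DICER1-AS1. FBXL19-AS1 had a signal of 50.8 after #1 siHOTAIR and 148 after siGFP by 1 of 2 probes, a log2 ratio of -1.59. The other probe of FBXL19-AS1, with 37.9 and 31.3, was on neither array and did not show the decrease. The sense gene FBXL19, an F-box protein that binds unmethylated CpG DNA, had 1076 and 863, a ratio of 0.27. The starts of this pair lie head to head, with that of the antisense RNA 418 bases inside the FBXL19 transcript. At the level of the brighter FBXL19-AS1 probe, repeated spots of other probes give a ratio an SD of 0.30, and the software's own error estimate gives 0.30 as well. The ratio exceeded both, but neither error includes the spread between cultures.

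A2M-AS1 had a signal of 178 after #1 siHOTAIR and 443 after siGFP, a ratio of -1.36. Its sense gene A2M, a protease inhibitor of the plasma, was well above background on neither array by a probe with 10 spots. The antisense RNA was thus measured where its sense gene did not pass the background. NFYC-AS1, the only changed antisense probe above the 75th percentile of its array, had 1268 and 2899 and a ratio of -1.24. Its other probe gave 138 and 152, a ratio of -0.18, so the 2 probes of NFYC-AS1 differed by 1.05 on the log2 scale. The 4 probes of NFYC, a subunit of the NF-Y complex, had ratios between -0.26 and -0.07.

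CIRBP-AS1 was the only antisense RNA on both arrays that was at least 2-fold higher. Its signal was 539 after #1 siHOTAIR and 209 after siGFP, a ratio of 1.32. CIRBP encodes a cold-inducible RNA-binding protein and had 2 probes with 2 spots each. The probe of its coding transcript gave 4563 and 5159, a ratio of -0.22, while the probe of a noncoding CIRBP transcript gave 93.9 and 215, a ratio of -1.24. The antisense RNA and the noncoding sense transcript therefore stood on opposite sides, each by more than 2-fold, and the bright coding probe stood close to 0.

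**Figure D3:**
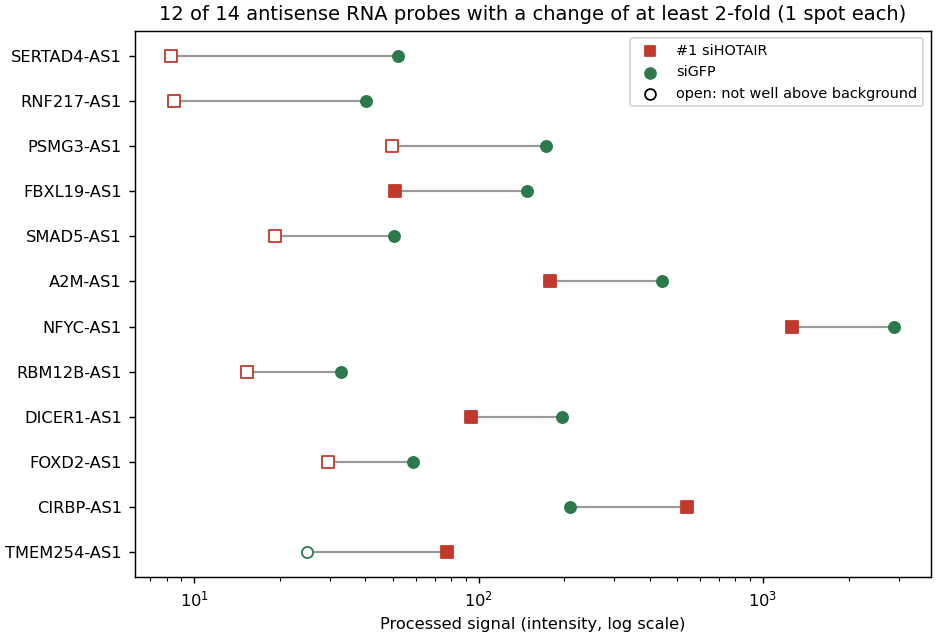
Processed signals on a log axis in #1 siHOTAIR-transfected cells (squares) and siGFP-transfected cells (circles) are joined for 12 of the 14 antisense probes with a change of at least 2-fold, in order of their log2 ratio from -2.70 at the top to 1.60 at the bottom, with open symbols where a signal is not well above background. The square lies left of the circle in 10 probes and right of it in 2, and 5 of the 12 have filled symbols on both arrays.

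The other 8 changed antisense probes passed the background call on 1 array only, so their folds are bounds unless the fainter signal was kept as measured. Here the fainter signal was replaced, where it was lower still, by the weakest signal that passed the background call on its array, which was 37.3 (#1 siHOTAIR) or 28.6 (siGFP). PSMG3-AS1 had 49.7 after #1 siHOTAIR and 172 after siGFP and was 3.57-fold lower as measured. This is no bound, since 49.7 is above 37.3 and was not replaced. Its log2 ratio of -1.84 was -1.115 with normexp correction and -0.96 without background correction. The second probe of PSMG3-AS1, on both arrays, had 63.1 and 104, a ratio of -0.77. PSMG3, a chaperone of proteasome assembly, had a ratio of -0.02. Both antisense probes lay below 0, but they differed by 1.06 on the log2 scale.

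The bounds of the other probes were mostly small. FOXD2-AS1 was at least 1.63-fold lower, from 29.4 after #1 siHOTAIR and 59.0 after siGFP, while FOXD2, a forkhead transcription factor, had a ratio of 0.48. SERTAD4-AS1 had 8.28 and 51.9 and was at least 1.44-fold lower, and SERTAD4 was on neither array. SMAD5-AS1 had 19.2 and 50.5 and was at least 1.40-fold lower, with a ratio of 0.20 for SMAD5, a mediator of bone morphogenetic protein signalling. RNF217-AS1 had 8.46 and 40.2 and was at least 1.11-fold lower. RNF217, a ubiquitin ligase, was also lower, with 123 and 222 and a ratio of -0.90. RBM12B-AS1, with 15.4 and 32.7, has no fold because its bright signal is below the lowest signal well above background on the other array. TMEM254-AS1 was the 1 antisense RNA above background after #1 siHOTAIR alone, with 77.7 and 24.8, at least 2.63-fold higher, and TMEM254 had a ratio of -0.52. At its own signals the ratio of TMEM254-AS1 was 1.60, and it was 0.62 with normexp correction and 0.55 without background correction.

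Several antisense RNAs lay just inside the 2-fold limit. MCM3AP-AS1 had 45.2 after #1 siHOTAIR and 85.4 after siGFP, a ratio of -0.96, and HDHD5-AS1 had the same ratio, -0.96. OIP5-AS1, a conserved RNA known as Cyrano that pairs with a microRNA, had 304 and 549, a ratio of -0.90. Their sense genes had ratios of 0.10 for MCM3AP by 10 spots, 0.18 for HDHD5 and 0.16 for OIP5. In all 3 pairs the antisense RNA was lower by nearly 2-fold and the sense gene stood within 0.2 of 0. On the higher side was H1-10-AS1 with 154 and 81.3, a ratio of 0.88. PDCD4-AS1, further from the limit, had 487 and 325, a ratio of 0.54. H1-10, a linker histone, had a ratio of -0.11, and PDCD4, an inhibitor of translation, had -0.70 from 141 and 222.

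By the rule for named genes, the 10 antisense genes with the highest mean signal were also followed, and NFYC-AS1 was among them. The other 9 had ratios between -0.42 for SPEN-AS1 and 0.36 for SVIL-AS1. HLA-F-AS1, beside a nonclassical MHC class I gene, had 22284 after #1 siHOTAIR and 27273 after siGFP, a ratio of -0.34. EPB41L4A-AS1, the host of a small nucleolar RNA, had 9261 and 8292, a ratio of 0.11, while its sense gene EPB41L4A was on neither array. The rest of the 9 were GALNT9-AS1 with 0.19, DLGAP1-AS1 with -0.17, B3GALT5-AS1 with -0.16 by its brighter probe, LBX2-AS1 with -0.20 and NDUFB2-AS1 with 0.04. Apart from NFYC-AS1, none of these 10 reached 2-fold.

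Antisense genes with several probes give a check on the ratios. In 14 genes 2 probes were compared, and their ratios differed by a median of 0.31. The difference reached 2-fold in NFYC-AS1 and PSMG3-AS1. It was below 0.10 in genes that included ARHGAP5-AS1, SPEN-AS1 and ZBTB11-AS1. The pairs of probes in B3GALT5-AS1, DHRS4-AS1, ERCC6L2-AS1, PARD6G-AS1, SNAI3-AS1 and ZNF407-AS1 fell on either side of 0. How far a single spot can be relied on was measured in probes with 2 spots on both arrays. Where the first spot was at least 2-fold lower, the second was too in 45 of 62 probes (72.6%), and where it was higher, the second was in 44 of 77 (57.1%). Over all compared probes with 2 spots, which include those on 1 array only, the second spot followed in 76 of 171 lower (44.4%) and 67 of 172 higher (39.0%).

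Pairs of an antisense and a sense gene were compared with 1 probe a gene, the one with the highest mean signal. Both genes were compared in 68 pairs. In 55 pairs the sense gene was compared and the antisense RNA was on neither array, in 13 the antisense RNA was compared and the sense gene was on neither, in 25 both were on neither, and in 6 the sense gene had no probe. An antisense RNA above background without its sense gene was thus less common than the reverse.

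In the 68 pairs the ratios of antisense and sense gene had opposite signs more often than the same sign. They had the same sign in 27 pairs, 22 with both lower and 5 with both higher. In 25 pairs the antisense RNA was lower and the sense gene higher, and in 16 it was the other way round. The median ratio was -0.34 for the antisense genes and -0.05 for the sense genes, and the median difference within a pair was -0.31. Pearson's r over the 68 pairs was -0.03 and Spearman's rho was -0.20. In the 55 pairs with both genes on both arrays, the same sign was found in 20, with r of -0.27 and rho of -0.32. These are descriptions across genes of the same 2 arrays, and genes are not independent replicates.

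By these probes, in no pair did both genes change at least 2-fold, either the same way or in opposite ways. CIRBP and CIRBP-AS1 did so only by the dimmer CIRBP probe given above. An antisense gene changed in 11 of the 68 pairs and a sense gene in 3. The 24 pairs that started head to head within 1000 bases did not stand apart in sign. They had the same sign in 8, with a median of -0.34 for the antisense and 0.01 for the sense genes.

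**Figure D4:**
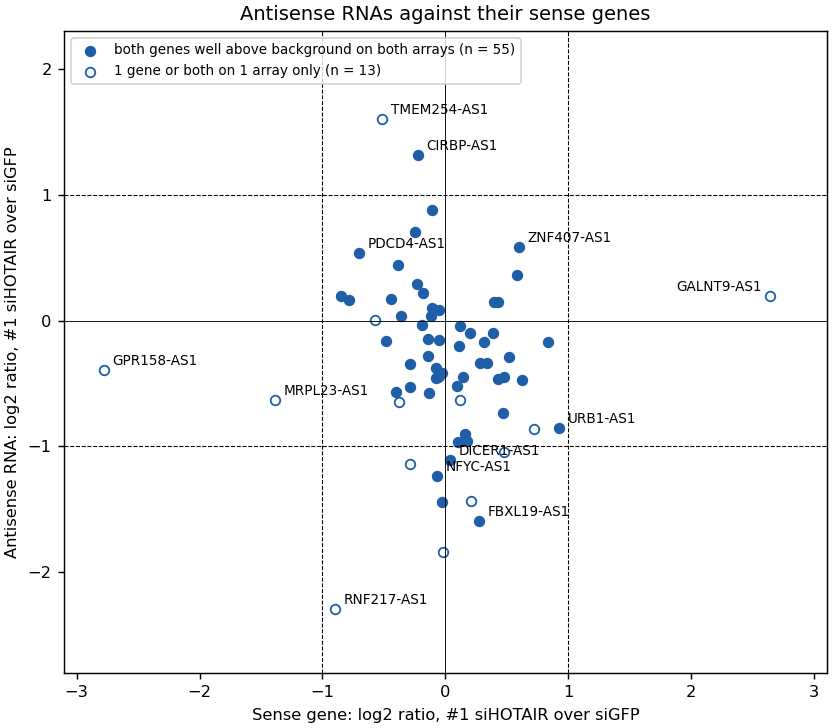
Each point is 1 of 68 pairs, with the log2 ratio of the sense gene on the horizontal axis and that of its antisense RNA on the vertical axis, both as #1 siHOTAIR over siGFP, and dashed lines at 2-fold. The points spread downwards around a sense ratio of 0, as for FBXL19-AS1 at -1.59, and no point lies in a corner beyond 2-fold on both axes.

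Of the changed sense probes, that of CIRBP is given above. For GRIK1, ZNF252P, EPCIP, C1RL and CDKN2B the antisense RNA was on neither array. GRIK1, a kainate receptor subunit, had 810 after #1 siHOTAIR and 279 after siGFP by a probe with 10 spots, a ratio of 1.49. At its level, repeated spots of other probes give a ratio averaged over 10 spots an SD of 0.03. The software's own error estimate gives 0.07, and neither error includes the spread between cultures. MRPL23, a protein of the mitochondrial ribosome, had 1987 and 5040, a ratio of -1.39, and MRPL23-AS1 had 32.6 and 48.9, above background in siGFP-transfected cells only. ZNF252P, a transcribed pseudogene, was lower by both probes, with 1173 and 2441 (-1.10) and with 142 and 258 (-0.91). LBX2, a homeobox gene, had 77.8 and 33.8 by its dimmer probe, a ratio of 1.16 (0.56 with normexp and 0.50 without background correction), but 0.11 by its brighter probe, and LBX2-AS1 had -0.20.

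The other changed sense probes were on 1 array only. EPCIP had 132 after #1 siHOTAIR and 6.45 after siGFP by 1 of 2 probes, at least 4.48-fold higher, and its other probe, with 8.23 and 6.34, was on neither array. GALNT9, an enzyme of O-linked glycosylation, was at least 2.43-fold higher, while GALNT9-AS1 had 1393 and 1179 and a ratio of 0.19. ERCC6L2 was at least 1.88-fold higher by 1 of 2 probes, and HECTD2 had 44.4 and 15.6 by 1 of 3. GPR158, an orphan receptor, had 10.4 and 69.0 and was at least 1.91-fold lower, and GPR158-AS1 had 38.2 and 48.6. C1RL was at least 1.25-fold lower by 1 of 2 probes, the other being on neither array. CDKN2B, an inhibitor of cyclin-dependent kinases, had 29.1 and 6.29 and has no fold, since after scaling its signal lay below the weakest one called on the other array.

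Antisense RNAs that are well known in cancer or development were taken as a list of 55 genes, of which 18 had a probe here, with 20 probes. Of these, 10 genes with 11 probes were compared. No probe was at least 2-fold higher and 1, of FOXD2-AS1, was lower. The shares over all compared probes were 3.3% higher and 4.1% lower. FOXD2-AS1 passed the background call after siGFP only, with a bound of 1.63-fold. The 11 probes had a median ratio of 0.04, and 5 were below 0. Members of the list near 0 included PAX8-AS1 with 308 and 290 (0.04) and TPT1-AS1 with 367 and 332 (0.10). Among those on neither array were CDKN2B-AS1, also called ANRIL, which binds Polycomb proteins, and AFAP1-AS1, DLX6-AS1, HAND2-AS1, LEF1-AS1, NR2F1-AS1 and ZEB1-AS1. CDKN2B-AS1 had 2 spots and AFAP1-AS1 had 10.

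HOTAIR lies among the HOX genes, but no antisense RNA of a HOX cluster was found by the naming rule among the matched symbols. HOXA11-AS, outside the set since its symbol has no number after AS, had 2901 after #1 siHOTAIR and 2913 after siGFP, a ratio of -0.05. BDNF-AS, likewise outside it, had 18.4 and 29.7, well above background after siGFP only and without a fold. WT1-AS was on neither array. Of the members tied to cell cycle inhibitors, CDKN2A-AS1 had 24.6 and 37.0, well above background after siGFP only, and CDKN2A had a ratio of 0.12 by its brighter probe.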

How the data were processed

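Total RNA of #1 siHOTAIR- and siGFP-transfected SBC-3 cells was measured on 1 one-colour array each. The authors labelled the RNA with Cy3 and deposited the scanner output, in which the processed intensity of a spot is background-subtracted and corrected for trends across the slide, but not normalized between arrays. The submitters' processing notes name Agilent Feature Extraction 10.10.1.1. A deposited value table held the background-subtracted intensity of the same arrays. Of 58717 spots that are not controls, 393 and 375 were marked as outliers and left out, and none was saturated.

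Each log2 processed signal was set against its array's 75th percentile, and spots of a probe were averaged. No test was possible with 1 array per condition, so changes are given by size (at least 2-fold). Bounds are given where a probe was well above background on 1 array only and its fainter signal was replaced. Measurement error came from probes with 10 spots (8 or more left after outliers) at 6 levels of signal and from the software's estimate. Precision is limited by the number of arrays and by signal over background. Accessions were matched without versions to RefSeq names of GRCh38.p14 (1350 of 1581 NR_ probes). Promoter sequences are from the same assembly, and no coordinates of the array design were used. The sequences of the probes were not used, so the strand each reads was not checked.

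Named genes were the antisense genes changed at least 2-fold on both arrays, the largest bounds on 1 array, the 10 with the highest mean signal, the pairs whose sense gene changed, HOX antisense genes and the list of known antisense RNAs, HOTAIR, and genes whose probes disagreed. Other named genes (those with ratios near the 2-fold limit, the head to head pairs shown as sequences, and further sense probes) were chosen after their values were seen. The members and lists were chosen with earlier results of these data known.

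Python 3.11.15, numpy 2.4.6, pandas 2.3.3, scipy 1.17.1 and matplotlib 3.10.9 were used, and R 4.3.3 with limma 3.58.1 for normexp background correction (offset 50), in which the median signal of a spot stood in for the mean. The calling of changes was tested on simulated data. Alternatives were quantile normalization, centring on the median, scaling to the spike-in RNA, normexp, no background correction, the value table with a floor of 10, stricter filters, other fold thresholds, dim signals at their bound and probes with 2 or more spots. Leaving out rows 1 to 144 of the slide was added after seeing the data. Some items are not reported here.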

Additional observations from a re-analysis of the deposited data

How the results depend on the processing

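Counts of changed probes depended on the background correction and on dim signals, and the median of the antisense probes on the scaling. The counts were 12 antisense probes at least 2-fold lower and 2 higher, and 5 sense probes lower and 7 higher. With normexp 4 antisense probes were lower and 1 higher, with 2 sense probes each way. Without background correction 1 antisense probe was lower and 1 higher, again with 2 sense probes each way. Only with probes on both arrays, 5 antisense probes were lower and 1 higher, and 3 sense probes were lower and 2 higher. At 1.5-fold the counts were 24 lower and 4 higher for the antisense probes and 15 lower and 17 higher for the sense probes. At this limit 2 pairs changed the same way (RNF217-AS1 with RNF217 and MRPL23-AS1 with MRPL23, both lower). Pairs that changed in opposite ways were URB1-AS1 with URB1 (-0.85 and 0.93) and ZMIZ1-AS1 with ZMIZ1 (-0.86 and 0.72). At 3-fold the counts were 4 lower and 1 higher for the antisense and 1 lower and 3 higher for the sense probes. No share of all probes is given beside the counts for other background corrections or fold limits. With dim signals at their bound, 6 antisense probes were lower, and 3 sense probes were lower and 4 higher. With probes of 2 or more spots, 1 sense probe was lower and 2 were higher, and no antisense probe was left. Scaling to the spike-in RNA gave a median of -0.073 for the antisense and 0.15 for the sense probes, with 3 sense probes lower. It moved the median of all probes to 0.15, and the antisense median stayed 0.22 below it (-0.22). Without rows 1 to 144 the antisense median was -0.10 with 1 probe higher, and 2 sense probes were lower and 2 higher. The cause of these differences was not tested. Of 90 ratios of named probes recomputed under 6 settings, 71 kept their direction and stayed at 2-fold or more, 19 kept their direction below it and 0 turned. HOTAIR ranged from -1.26 to -0.73. FBXL19-AS1 ranged from -1.62 to -0.89, A2M-AS1 from -1.39 to -0.96, NFYC-AS1 from -1.27 to -1.10 and CIRBP-AS1 from 1.07 to 1.46. DICER1-AS1 ranged from -1.14 to -0.70, PSMG3-AS1 from -1.87 to -0.96, TMEM254-AS1 from 0.55 to 1.74 and LBX2 from 0.50 to 1.30. No paired analysis was possible because each condition had 1 array.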
